A study of Mus musculus with 4 samples.

Results

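Regulatory T cells of B16 melanoma, a transplantable mouse tumor line, were compared by the size of the T cell clonotype they belonged to. A regulatory T cell was a cell with at least 1 Foxp3 UMI, at least 1 Cd4 UMI and at least 600 detected genes, where a UMI (unique molecular identifier) counts 1 captured RNA molecule. A clonotype was the V segment and junction sequence of the most abundant TRA and TRB contig of a cell. Expanded clonotypes held at least 3 such cells in their library, and single-cell clonotypes held 1. The expanded clonotypes comprised 270 cells and the single-cell clonotypes 1228, together 1498 of the 20170 cells with at least 600 genes in the series. Members were thus selected on measured values, namely Foxp3, Cd4 and the number of cells of a clonotype, and these are given as a description without a test. The clonotypes of 2 cells, with 194 cells, belonged to neither group.

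One library came from pooled tumors of VISTA-KO mice, which carried the CD4 cre transgene and Vsir fl/fl alleles, and the other from pooled tumors of WT littermates with Vsir fl/fl alleles. In VISTA-KO mice the Cre recombinase is driven by a CD4 promoter, a design meant to delete the checkpoint molecule VISTA in T cells. Mice of both genotypes bore B16 melanoma and received a peptide vaccine together with anti-CTLA-4 antibodies, and the tumor-infiltrating T cells were isolated on day 18 after treatment by sorting CD4+ and CD8+ cells. Vsir, which encodes VISTA, had 135 CPM (counts of a gene scaled to a common total of UMIs) in expanded and 112 in single-cell clonotypes of the WT library, and 87.6 and 119 in those of the library labelled VISTA-KO. Its RNA thus did not separate the libraries, and since the deleted part of the gene is not given in the sources used here, these counts do not check the labels. WT and VISTA-KO name the libraries as labelled throughout. Each genotype had 1 gene expression library and 1 receptor library and no replicate, so WT and VISTA-KO values are described side by side and were not tested against each other. Expanded and single-cell clonotypes were tested over the 2 libraries of different genotype. The p-values and SE below rest on the spread between those libraries, which edgeR pools over genes. A gene's SE can thus be smaller than its own spread between the libraries, and the spread between mice is not measured.

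Regulatory T cells are the CD4 T cells that carry the transcription factor Foxp3 and restrain the responses of other T cells. Each T cell assembles its receptor from an alpha (TRA) and a beta (TRB) chain. The V and J segments of a chain are joined with trimmed and added bases at the junction. In the beta chain a D segment lies between them. The daughters of a dividing cell inherit the same pair of junctions. Cells that share both junctions are therefore read as members of 1 clonotype. In tumors, regulatory T cells that have met antigen carry inhibitory receptors and chemokine receptors of inflamed tissue, while recirculating ones carry genes of naive-like T cells.

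The junctions of the 3 largest expanded clonotypes of each library, and of a further WT pair that shared an alpha chain, are shown because the sizes and relations of these clonotypes recur in the results. They are given 5′ to 3′ as assembled in the receptor libraries, and capitals mark bases that lie between the end of the V alignment and the start of the J alignment. In beta chains these can include bases of the D segment. Where no letter is in capitals the alignments met or overlapped.
WT1 alpha, TRAV6-6 and TRAJ13: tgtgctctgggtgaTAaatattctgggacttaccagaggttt
WT1 beta, TRBV13-3 and TRBJ2-1: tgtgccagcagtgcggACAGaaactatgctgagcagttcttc
WT2 alpha, TRAV9N-4 and TRAJ26: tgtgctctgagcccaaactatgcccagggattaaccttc
WT2 beta, TRBV13-3 and TRBJ2-1: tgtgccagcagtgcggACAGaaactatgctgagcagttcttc
WT3 alpha, TRAV8-1 and TRAJ31: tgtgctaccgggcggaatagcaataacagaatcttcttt
WT3 beta, TRBV3 and TRBJ2-1: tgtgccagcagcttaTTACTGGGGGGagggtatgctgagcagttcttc
WT5 alpha, TRAV13-1 and TRAJ32: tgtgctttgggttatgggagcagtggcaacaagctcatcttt
WT5 beta, TRBV5 and TRBJ2-4: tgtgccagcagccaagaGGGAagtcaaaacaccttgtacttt
WT7 alpha, TRAV13-1 and TRAJ32: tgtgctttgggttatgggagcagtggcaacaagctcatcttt
WT7 beta, TRBV5 and TRBJ2-4: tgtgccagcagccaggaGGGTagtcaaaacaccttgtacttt
KO1 alpha, TRAV5D-4 and TRAJ6: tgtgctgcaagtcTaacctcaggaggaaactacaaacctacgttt
KO1 beta, TRBV17 and TRBJ2-2: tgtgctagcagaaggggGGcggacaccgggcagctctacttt
KO2 alpha, TRAV12-3 and TRAJ40: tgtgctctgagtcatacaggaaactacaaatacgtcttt
KO2 beta, TRBV15 and TRBJ2-7: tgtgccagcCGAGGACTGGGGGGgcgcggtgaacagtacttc
KO3 alpha, TRAV7D-2 and TRAJ56: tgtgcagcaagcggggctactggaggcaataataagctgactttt
KO3 beta, TRBV13-1 and TRBJ2-4: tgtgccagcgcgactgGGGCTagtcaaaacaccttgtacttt

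The WT clonotypes WT1 and WT2, the largest of the series by the rule, had the same beta chain and different alpha chains. Of their 45 cells, 42 carried both alpha chains, 25 of the 27 WT1 cells and 17 of the 18 WT2 cells, and they were assigned to one or the other by whichever alpha contig had more UMIs. Counted by beta chain and the pair of alpha chains, WT1 and WT2 are thus 1 set of cells, and the number of expanded WT clonotypes given here counts it as 2. WT5, with 8 cells, and WT7, with 7, had the same alpha chain, and no cell carried the beta chains of both. Their beta junctions differed at 2 of 42 bases, A15G and A21T counted from the 5′ end of the junction with the base of WT5 first, and encoded the same amino acids. A further WT clonotype, of 1 cell, encoded the same receptor, so that 3 nucleotide clonotypes with 16 cells had 1 amino acid receptor. Of the single-cell clonotypes, 9 WT and 2 VISTA-KO cells carried both chains of an expanded clonotype among their contigs while another contig was more abundant.

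The WT library held 10337 cell barcodes with a median of 4684 UMIs, and the VISTA-KO library 10085 with a median of 4623. There were 1528 regulatory T cells in WT and 1270 in VISTA-KO. A clonotype with both chains was obtained for 771 WT cells, 50.5% (exact Clopper-Pearson 95% interval 47.9 to 53.0), and for 921 VISTA-KO cells, 72.5% (70.0 to 75.0). The WT regulatory T cells without a clonotype had a median of 13380 UMIs and those with one 6126, against 8412 and 5514 in VISTA-KO. In cells without a Foxp3 UMI the recovery was 73.0% in WT and 76.1% in VISTA-KO. The part of this unequal recovery in the results was not tested. The libraries shared 145 barcodes, none of them with the same clonotype.

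In WT, 205 of 771 cells belonged to 34 expanded clonotypes, which is 26.6% (23.5 to 29.9), and in VISTA-KO 65 of 921 cells belonged to 17 expanded clonotypes, which is 7.06% (5.49 to 8.91). Intervals on shares cover counting error only. They take cells as independent, which cells of a clonotype are not, so they can be too narrow. Single-cell clonotypes held 62.0% of WT cells (58.5 to 65.4) and 81.4% of VISTA-KO cells (78.8 to 83.9). If 771 cells were drawn from the 921 of VISTA-KO, 5.95% would be expected in expanded clonotypes, so the unequal number of cells moved the share by less than its interval. The largest clonotype held 27 cells in WT, 3.50% (2.32 to 5.05), and 7 in VISTA-KO, 0.760% (0.306 to 1.56). With WT1 and WT2 counted as 1 set, the largest held 45 cells in WT, 5.84% (4.29 to 7.73), and the expanded WT clonotypes numbered 33. Clonotypes of 10 or more cells held 62 WT cells and 0 of 921 VISTA-KO cells. No upper limit is given for such clonotypes in VISTA-KO, since the cells of a clonotype are not independent. A single pool of mice stood behind each share, so whether mice within a pool differed is not known.

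**Figure D1:**
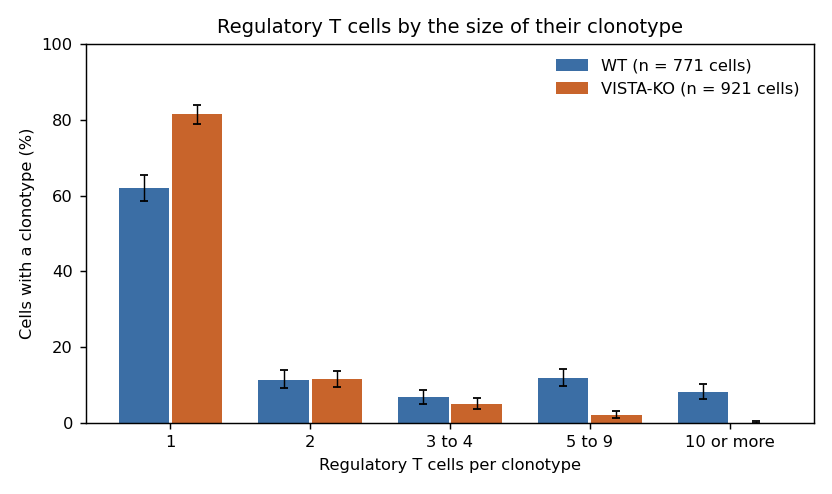
Share of regulatory T cells with a clonotype (y axis, percent) by the number of such cells in their clonotype (x axis) in the WT and VISTA-KO libraries. Bars are shares and whiskers exact 95% binomial intervals, which cover counting error only. The whiskers take cells as independent, which cells of a clonotype are not. WT has 26.6% and VISTA-KO 7.06% of cells in clonotypes of 3 or more cells.

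Few clonotypes were common to both pools. By nucleotide sequence 1 regulatory clonotype was found in both libraries, with 1 cell in each, and no expanded clonotype of either library was found in any cell of the other. By amino acid sequence 2 regulatory clonotypes were found in both. The clonotypes of expanded cells used many V segments. TRBV5 was used by 7 of 34 expanded WT clonotypes, 20.6% (8.70 to 37.9), against 8.37% (6.05 to 11.2) of the single-cell ones, and by 3 of 17 expanded VISTA-KO clonotypes, 17.6% (3.8 to 43.4), against 9.07% (7.11 to 11.4). These intervals overlapped in both libraries. The TRBV5 clonotypes of WT included WT5 and WT7, which encoded 1 amino acid receptor. Some other segments also ran the same way in both libraries, and others did not. TRBV13-3 had 14.7% against 5.44% in WT and 5.88% against 4.27% in VISTA-KO. Its 5 expanded WT clonotypes included WT1 and WT2, which had the same beta chain and are 1 set of cells. TRBV12-2+TRBV13-2 had 20.6% against 13.8% in WT and 5.88% against 12.7% in VISTA-KO. Segment use was not tested. The alpha junction had a mean of 13.3 ± 1.15 codons (SD over 34 clonotypes) in expanded WT clonotypes and 13.5 ± 1.30 in single-cell ones, and 14.2 ± 1.19 (17 clonotypes) against 13.5 ± 1.31 in VISTA-KO. The beta junction had 13.6 ± 1.56 against 13.9 ± 1.35 codons in WT and 13.7 ± 1.31 against 13.8 ± 1.36 in VISTA-KO. The differences in length were not tested.

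Most cells carrying the receptor of an expanded clonotype were regulatory T cells, which the rule partly fixed. It asked for at least 3 such cells per clonotype, and these were 205 of 291 cells in WT and 65 of 77 in VISTA-KO. A single-cell clonotype held 1 such cell by the rule. Over all cells of the library that carried the receptor of an expanded clonotype, 19 of 291 in WT had no Foxp3 UMI, 6.53% (3.98 to 10.0), and 6 of 77 in VISTA-KO, 7.79% (2.91 to 16.2). These cells came from 9 of 34 and 4 of 17 clonotypes, and a further 67 and 6 cells had Foxp3 but no Cd4 UMI. No expanded clonotype had Cd8a UMIs in most of its cells. Among single-cell clonotypes, 65 in each library also occurred in cells outside the regulatory T cells. These were 534 cells in WT, of which 411 had a Cd8a UMI, and 274 in VISTA-KO, of which 68 did. They were spread unevenly over the clonotypes. The largest of these clonotypes had 323 cells in the WT library and 62 in the VISTA-KO library, each with its regulatory T cell counted.

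Expanded and single-cell groups differed in signs of mixed barcodes, and these values belong beside each gene result below. At least 2 productive TRB contigs were found in 2.93% of expanded and 22.2% of single-cell WT cells, and in 3.08% and 18.5% in VISTA-KO. The part of these barcodes in the results was not tested other than by leaving them out. A Cd8a UMI was found in 5.37% of expanded and 15.5% of single-cell WT cells and in 1.54% and 12.0% in VISTA-KO. A Cd8b1 UMI was found in 27.8% and 26.6% in WT, so its share was no lower in expanded WT cells, and in 12.3% and 23.6% in VISTA-KO. Median UMIs were close, 5775 and 6113 in WT and 5467 and 5539 in VISTA-KO. Both members of the CD8 list, Cd8a and Cd8b1, were called lower in expanded cells, and 3 of the 5 markers of plasmacytoid dendritic cells too. The CD8 list summed to 63.5 and 291 CPM in expanded and single-cell WT cells and 25.0 and 255 in VISTA-KO, and the plasmacytoid list to 438 and 667, and 315 and 476. The 6 melanoma markers passed no filter on low counts and summed to 7.06 and 9.72 CPM in WT, and to 0 and 371 in VISTA-KO. The part of these RNAs in the results was not tested. The comparison was therefore also run with stricter cells, chosen after seeing the data, namely cells with at least 2 Foxp3 UMIs, no Cd8a or Cd8b1 UMI and fewer than 2 TRB contigs, and single-cell clonotypes seen once among all cells of the library. This left 91 expanded and 213 single-cell WT cells and 32 and 380 VISTA-KO cells.

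UMIs were summed over the cells of each group in each library and the 4 sums were fitted with edgeR, with the library as a block. Levels are CPM of such a sum, and changes are log2 fold changes of expanded over single-cell clonotypes ± SE (n = 2 libraries per group), with p-values adjusted by Benjamini-Hochberg over all genes tested. Of 9885 genes, 131 were called higher in expanded cells, a background of 1.33% of genes, and 148 lower, 1.5%, at an adjusted p under 0.05. With the stricter cells 25 were called higher and 15 lower, and 38 of the 279 calls were called again. Of the 235 calls that could be tested there, 231 kept their direction. The stricter cells are part of the cells on which the genes were called, so this was largely fixed in advance and is no independent check. The number of calls also depended on the model: DESeq2 called 24 genes higher and 9 lower, with an adjusted p for 1092 genes, and edgeR without the library block called 1 and 7.

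Several inhibitory receptors were higher in expanded cells, and most genes of naive and recirculating T cells lower. Of 8 genes of the inhibitory receptor list tested, 4 rose and Cd160 fell, with a median of 0.56 against -0.0082 over all genes. The 4 were the receptor genes Pdcd1, Lag3 and Tigit, and Tox, a transcription factor that the list holds beside receptors. Of 16 genes of the naive and recirculating list, 10 fell and none rose, with a median of -1.20. In RefSeq's annotation of GRCm38.p6, the main genes of these lists span chr16:43626137-43665125 (Tigit), chr1:94038305-94052553 (Pdcd1), chr6:124904359-124912434 (Lag3) and chr8:72319062-72321654 (Klf2).

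Tigit, a receptor that binds ligands on antigen-presenting cells, had 876 CPM in expanded and 512 in single-cell WT cells, and 818 and 422 in VISTA-KO. Both expanded sums lay above both single-cell sums, a rise of 0.88 ± 0.085 (edgeR, adjusted p = 1.8e-07), and 0.82 with the stricter cells (edgeR, adjusted p = 0.0073). Pdcd1, which encodes PD-1, had 441 and 284 CPM in WT and 415 and 181 in VISTA-KO. Its rise was 0.90 ± 0.12 (edgeR, adjusted p = 1.3e-05), and 0.92 with the stricter cells (edgeR, adjusted p = 0.017). Lag3, a receptor for MHC class II, had 255 and 142 CPM in WT and 269 and 108 in VISTA-KO. It rose by 1.07 ± 0.13 (edgeR, adjusted p = 4.5e-06), and by 1.27 with the stricter cells (edgeR, adjusted p = 0.0066). Tox, a transcription factor of chronically stimulated T cells, rose by 0.59 ± 0.12 (edgeR, adjusted p = 0.0057) and was not called with the stricter cells, at 0.57 (edgeR, adjusted p = 0.67).

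**Figure D2:**
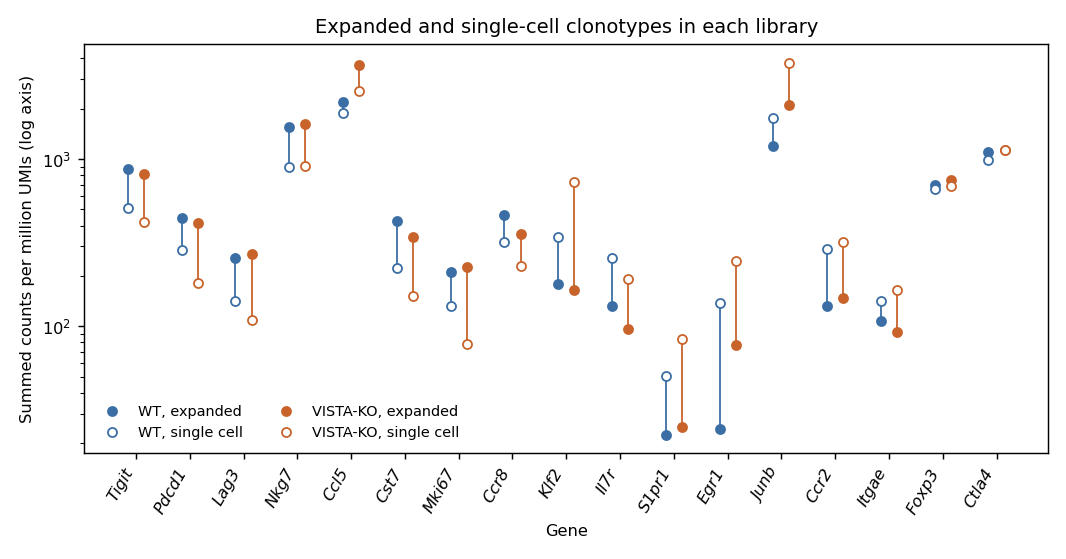
Summed level of 17 genes (y axis, CPM on a log axis) in expanded (filled) and single-cell (open) clonotypes of the WT and VISTA-KO libraries. Lines join the sums of 1 library. Tigit, Pdcd1 and Lag3 were higher in expanded cells of both libraries, Klf2 and Egr1 lower, and Ctla4 differed little. Foxp3, on which the cells were chosen, is shown as a description.

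Shares of cells, with each cell thinned to 2000 UMIs, ran the same way. A Tigit UMI was found in 78.8% of thinned expanded and 54.2% of single-cell WT cells, and in 78.5% and 47.4% in VISTA-KO (unthinned 95.6% and 81.4%, and 89.2% and 71.2%). In cells led by Siglech, a gene of plasmacytoid dendritic cells, which should lack it, the thinned share was 2.84% in WT and 6.0% in VISTA-KO, at a median depth of 8299 and 8702 UMIs. A Pdcd1 UMI was found in 48.5% and 35.2% of thinned WT cells and in 40.0% and 22.5% in VISTA-KO (unthinned 71.2% and 54.8%, and 69.2% and 37.9%), against 0.709% and 1.0% of the Siglech cells. Lag3 was found in 46.1% and 52.0% of the thinned Siglech cells, so these cells give no background for it.

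Klf2, a transcription factor of resting and recirculating T cells, had 179 and 344 CPM in WT and 165 and 732 in VISTA-KO. It fell by 1.41 ± 0.16 (edgeR, adjusted p = 2.3e-06), and had -1.39 with the stricter cells (edgeR, adjusted p = 0.0071). Il7r, the receptor for the survival cytokine IL-7, had 132 and 257 CPM in WT and 96.0 and 192 in VISTA-KO, a change of -0.95 ± 0.13 with all cells (called) and -1.32 with the stricter cells (edgeR, adjusted p = 0.029). Other genes of the list that fell with all cells were Tcf7, Lef1, S1pr1, Klf3, Satb1, Igfbp4 and Foxp1. With the stricter cells Igfbp4 was too low to be tested and none of the others was called. S1pr1, the egress receptor, kept its value, -1.35 with all cells and -1.35 with the stricter cells (edgeR, adjusted p = 0.33), while Klf3 moved from -2.66 to -2.22 (edgeR, adjusted p = 0.10) and Tcf7 from -2.93 to -1.86 (edgeR, adjusted p = 0.44).

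Several immediate early genes were lower in expanded cells. Of 23 T cell receptor-induced genes tested, 6 fell, Egr1, Cd69, Ier2, Fos, Fosb and Junb, and 1 rose, Rgs16, with a median of -0.16, and of -0.089 in WT and -0.49 in VISTA-KO alone. With the stricter cells only Egr1 and Junb of this list were called. There Ier2 had -0.84 (edgeR, adjusted p = 0.068) and Fos -0.40 (edgeR, adjusted p = 0.78). Fosb had -0.37 (edgeR, adjusted p = 0.999) and Rgs16 0.74 (edgeR, adjusted p = 0.39). Egr1, a transcription factor induced within minutes of receptor signalling, had 24.4 and 138 CPM in WT and 77.2 and 244 in VISTA-KO. It fell by 2.08 ± 0.18 (edgeR, adjusted p = 2.3e-08), and had -2.14 with the stricter cells (edgeR, adjusted p = 0.0035). Junb, a subunit of AP-1, had 1201 and 1750 CPM in WT and 2103 and 3768 in VISTA-KO, so that the VISTA-KO expanded sum lay above the WT single-cell sum. Within libraries it fell by 0.67 ± 0.073 (edgeR, adjusted p = 1.7e-06), and had -0.77 with the stricter cells (edgeR, adjusted p = 0.0039). Nr4a1, another such gene, was not called, with a change of -0.14 (edgeR, adjusted p = 0.76).

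Most identity genes of regulatory T cells were not called. Of 20 in the fit, Foxp3 among them, 2 rose, Il2rb and Ikzf4, and 2 fell, Nrp1 and Cd83. With the stricter cells none was called, while the values stayed near or moved further from 0. Il2rb, a chain of the IL-2 receptor, had 0.39 with all cells and 0.40 with the stricter ones, and Ikzf4, a relative of Ikzf2, 0.60 and 0.60. Nrp1, a marker of thymic regulatory T cells, had -0.82 and -1.44, and Cd83 -0.67 and -0.98. Foxp3, on which the cells were chosen, had 695 and 662 CPM in WT and 751 and 693 in VISTA-KO. Since the rule used Foxp3, its place among the uncalled genes is a description and no test result. Ctla4, the target of the antibody given, had 1100 and 991 CPM in WT and 1135 and 1125 in VISTA-KO, a change of 0.11 ± 0.076 (edgeR, adjusted p = 0.68). Ikzf2, which encodes Helios, had 631 and 504 CPM in WT and 686 and 618 in VISTA-KO, a change of 0.27 ± 0.087 (edgeR, adjusted p = 0.12).

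Genes of effector and tissue regulatory T cells moved both ways, 3 of 28 higher, Ccr8, Tnfrsf1b and Il1r2, and 4 lower, Itgae, Il1rl1, Ccr2 and Cxcr6, with a median of 0.035. Ccr2, a receptor for inflammatory chemokines, had 133 and 288 CPM in WT and 148 and 318 in VISTA-KO. It fell by 1.08 ± 0.12 (edgeR, adjusted p = 1.4e-06), and had -1.08 with the stricter cells (edgeR, adjusted p = 0.0084). Ccr8, a chemokine receptor of tumor regulatory T cells, had 465 and 317 CPM in WT and 355 and 230 in VISTA-KO, a rise of 0.61 ± 0.10 (edgeR, adjusted p = 0.00047) that was 0.25 with the stricter cells (edgeR, adjusted p = 0.998). Cxcr6 fell by 0.83 with all cells and had 0.15 with the stricter cells (edgeR, adjusted p = 0.999).

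Itgae, which encodes CD103, an integrin of tissue-resident T cells, had 108 and 142 CPM in WT and 91.8 and 165 in VISTA-KO. It fell by 0.54 ± 0.14 (edgeR, adjusted p = 0.040), had -1.14 with the stricter cells (edgeR, adjusted p = 0.026), and had -0.33 without the largest clonotype of each library (edgeR, adjusted p = 0.32) and -0.26 with at most 3 cells of each clonotype (edgeR, adjusted p = 0.77). The call was lost in both of these settings. Leaving out the largest clonotype took out WT1 and kept the 18 cells of WT2, which with WT1 is 1 set of cells. Itgae had a UMI in 0 of 27 cells of WT1 and in 2 of 18 cells of WT2. The 0 would allow a share of up to 11.1% if cells were independent, which cells of a clonotype are not.

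Of the cytotoxic list 3 of 11 genes rose, Nkg7, Ccl5 and Prf1, and 2 fell, Gzma and Fasl. Nkg7, a granule membrane protein, had 1561 and 889 CPM in WT and 1623 and 904 in VISTA-KO. It rose by 0.85 ± 0.072 (edgeR, adjusted p = 2.3e-08), and by 1.13 with the stricter cells (edgeR, adjusted p = 0.0019). Ccl5, a chemokine of activated T cells, had 2198 and 1884 CPM in WT and 3644 and 2537 in VISTA-KO. It rose by 0.39 ± 0.069 (edgeR, adjusted p = 0.0010), and by 1.11 with the stricter cells (edgeR, adjusted p = 0.00041). Gzma, a granzyme of CD8 T and NK cells, had 1.28 and 88.3 CPM in WT and 4.17 and 50.9 in VISTA-KO. Its fold change was the lowest among genes called with at least 20 CPM in 1 group and 1 direction in both libraries. It was too low to be tested in the stricter cells. Gzmb, the granzyme of activated T cells, had 665 and 566 CPM in WT and 686 and 1156 in VISTA-KO, so that the libraries went opposite ways, and was not called, at -0.20 (edgeR, adjusted p = 0.65).

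The genes with the highest log2 fold changes of all, by a rule that asked for at least 20 CPM in 1 group and the same direction in both libraries, were Srgap3, Gm30211, Serpina3f, Hist2h2ac, Itih5, Ptpn5, C2cd4b, Podnl1, 2900026A02Rik and Slfn9. Serpina3f, a serine protease inhibitor, had 110 and 47.6 CPM in WT and 111 and 27.3 in VISTA-KO, a rise of 1.54 ± 0.18 that was 1.53 with the stricter cells (edgeR, adjusted p = 0.024). Serpina3f, Itih5, Ptpn5 and Podnl1 were called again with the stricter cells, and Srgap3 was too low to be tested there. Among the lowest were Gzma, Cd8a, Ly6c2, Ptgds, Tcf7, Klrk1, Klf3, Spp1 and Cd63. The values of Ptgds and Cd63 rested on VISTA-KO, where Ptgds had 4.17 and 48.9 CPM and Cd63 4.17 and 63.9, against 0.64 and 1.58, and 3.85 and 8.41, in WT. With the stricter cells Ly6c2, Tcf7, Klf3 and Spp1 were not called, and Gzma, Cd8a, Ptgds, Klrk1 and Cd63 were too low to be tested there. Ly6c2, a surface protein of effector CD8 T cells and monocytes, had 25.0 and 225 CPM in WT and 14.6 and 249 in VISTA-KO, and moved from -3.36 to -1.32 (edgeR, adjusted p = 0.67). Beside these falls stands the higher share of cells with a Cd8a UMI in the single-cell group of both libraries given above. Beside those of Ptgds and Cd63 also stand the melanoma markers, which summed to 371 CPM in single-cell clonotypes of VISTA-KO and 9.72 in those of WT. The part of either in these falls was not tested.

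**Figure D3:**
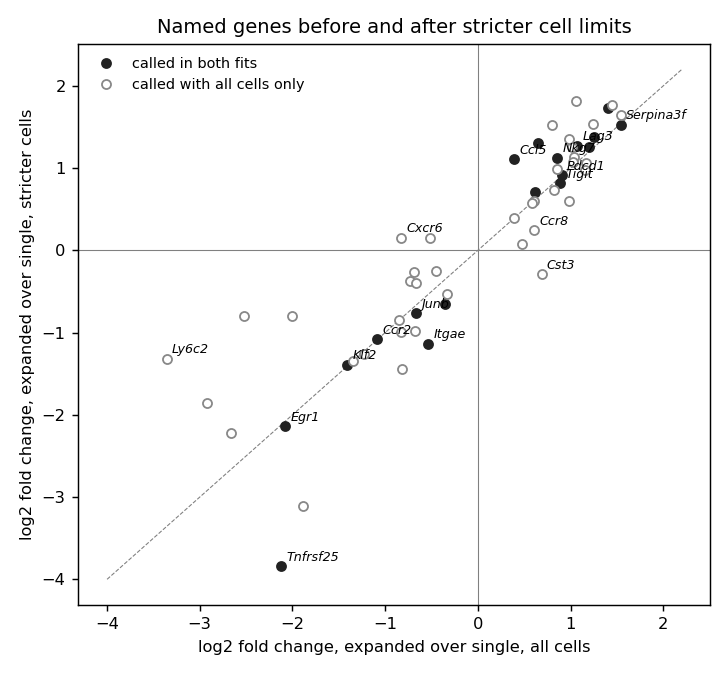
Log2 fold change of expanded over single-cell clonotypes of the named genes called with all cells (x axis), against the same with the stricter cells (y axis). Filled points were called in both fits, and the dashed line marks equal values. Tigit, Lag3, Pdcd1, Klf2 and Egr1 lie near the line, and Cst3, Cxcr6 and the unlabelled Bst2 change sign.

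Some genes of mitosis were higher in the sums of expanded cells. Of 23 tested, 8 rose and none fell, with a median of 0.70. The median was 0.21 in WT and 1.25 in VISTA-KO alone. With the stricter cells none was called and the median was 0.82, with Mki67 at 1.14, Top2a at 0.99 and Cenpf at 1.81. None of 21 DNA replication genes was called. Mki67, a marker of dividing cells, had 210 and 133 CPM in WT and 225 and 78.2 in VISTA-KO, a rise of 1.04 ± 0.15 (edgeR, adjusted p = 9.5e-05) that was 0.47 with at most 3 cells of each clonotype (edgeR, adjusted p = 0.69). For Mki67, 26 of 34 WT clonotypes and 12 of 17 VISTA-KO clonotypes lay below the level of their library's single-cell sum. The most Mki67 UMIs lay in WT13, WT3 and WT17, with 61, 61 and 60, and in KO5, with 51. The share of cells with at least 2 UMIs over 6 genes of division was 21.5% in expanded (16.0 to 27.7) and 24.1% (20.3 to 28.1) in single-cell WT cells, and 20% (11.1 to 31.8) and 16.5% (13.9 to 19.4) in VISTA-KO.

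Against 1.33% of all genes called higher and 1.5% lower, 5 of 14 genes were called in the NF-kB and TNF receptor family. Of these 14 genes of the NF-kB and TNF receptor family, 4 fell, Nfkbia, Tnfaip3, Tnfrsf25 and Cd40lg, and Tnfrsf1b rose. Nfkbia and Tnfrsf25 were called again with the stricter cells, at -0.66 and -3.84. Of 15 interferon-stimulated genes Isg15 and Bst2 fell, of 15 genes of cytokine signal feedback Socs3, Pim1 and Bcl2 fell, of 11 heat shock genes Hspa1a rose, and of 13 genes of glycolysis and hypoxia none was called. With the stricter cells no gene of the interferon-stimulated and feedback lists was called, and Bcl2 was too low to be tested. Isg15 had -0.26 there, Bst2 0.15, Socs3 -0.99 and Pim1 -0.54, while Hspa1a was called again at 1.31. Bst2 is also on the plasmacytoid list. Hspa1a, an inducible chaperone, had 258 and 183 CPM in WT and 171 and 96.4 in VISTA-KO. Among myeloid markers Cst3 and Cd74 were called higher. The list summed to 3032 and 1993 CPM in WT and 1395 and 1156 in VISTA-KO. Cst3 had 711 and 349 CPM in WT and 198 and 194 in VISTA-KO, and had -0.29 with the stricter cells, while Cd74, which activated T cells also express, was 0.61 and 0.71. H2-Aa, a chain of MHC class II, was not called with all cells, at 0.23, and was called higher with the stricter ones, at 1.42 (edgeR, adjusted p = 0.035). Neither of the 2 B cell markers nor the 1 NK marker tested was called.

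The expanded clonotypes differed widely among themselves, and single genes were not uniform over them. Tigit lay above the single-cell sum in 31 of 34 WT clonotypes and 13 of 17 VISTA-KO clonotypes, with medians of 875 and 738 CPM. Lag3 lay above it in 22 of 34 and 8 of 17, and Pdcd1 in 22 of 34 and 10 of 17. Egr1 lay below the single-cell sum in 34 of 34 and 15 of 17, of which 21 and 8 had no Egr1 UMI. The clonotypes are parts of the sums on which these genes were called, so the counts are no independent check. Clonotypes of 3 cells rest on few UMIs, so a clonotype at 0 may be one of low depth.

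**Figure D4:**
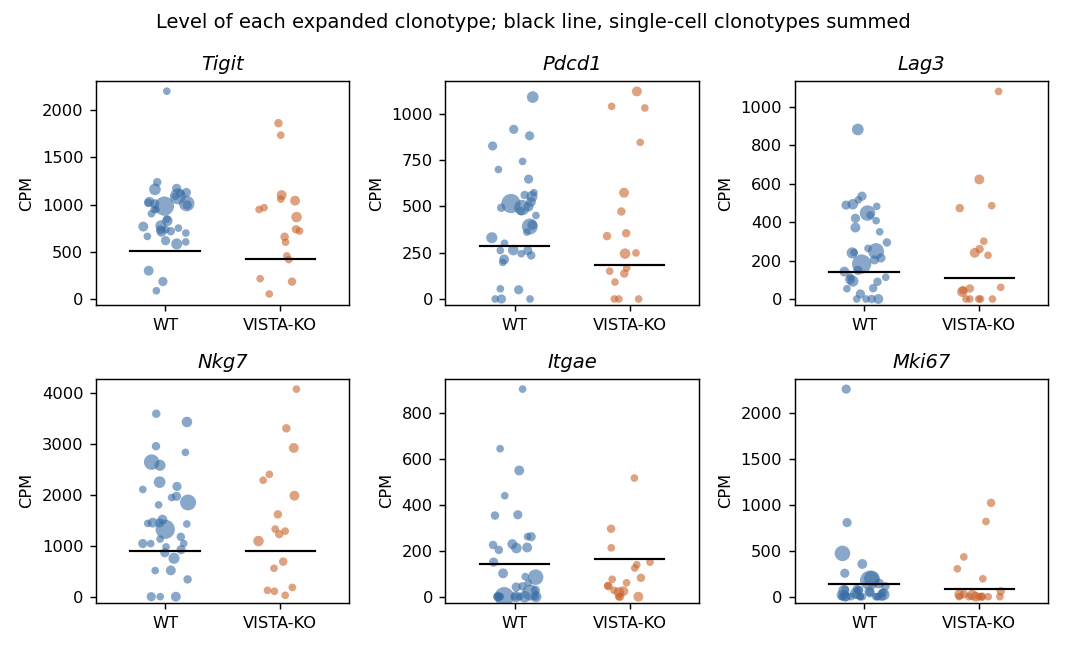
Level of 6 genes (y axis, CPM) in each expanded clonotype of the WT and VISTA-KO libraries, with the area of a point growing with its number of cells. The black line is the level of all single-cell clonotypes of that library summed. Tigit lies above the line in 31 of 34 WT clonotypes, and Mki67 below it in 26 of 34.

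A clonotype picked after its values were seen, WT13 with 5 cells, expressed another set of genes than WT1. Areg, a growth factor of tissue-repairing regulatory T cells, Klrg1, a receptor of terminally differentiated cells, and Itgae each had UMIs in 5 of 5 cells, while Pdcd1, Cxcr3 and Nkg7 had UMIs in 0 of 5, which allows a share of up to 60%. In WT1 the pattern ran the other way, with Pdcd1 in 22 of 27 cells, Cxcr3 in 25, Nkg7 in 26 and Areg in 0, which allows up to 11.1%.

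Levels followed the size of a clonotype in part. In WT, Tigit had 512 CPM in clonotypes of 1 cell, 545 in those of 2, 885 in those of 3 to 4, 748 in those of 5 to 9 and 1020.3 in those of 10 or more. In VISTA-KO it had 422, 631, 762 and 985 in the first 4 of these classes. Just outside the threshold, in clonotypes of 2 cells, Lag3 had 129 CPM in WT and 271 in VISTA-KO, and just inside, in those of 3, it had 250.1 and 289.8. The classes are parts of 1 library and were not tested.

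Within each library the changes had the same direction for 276 of the 279 calls. The genes were called on these same 2 libraries, so this was largely fixed in advance and is no independent check. On the log2 scale of CPM plus 5, Klf2 had -0.92 in WT and -2.12 in VISTA-KO, and Lag3 0.83 and 1.27. With 1 library per genotype no test of these differences between genotypes could be made.

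The change with expansion was also compared with that in conventional CD4 cells, which had Cd4 but no Foxp3, Cd8a or Cd8b1 UMI, with 279 expanded and 537 single cells in WT and 686 and 1051 in VISTA-KO. In conventional cells 182 genes were higher and 247 lower of 10200 tested. In a fit of all 8 sums the change was higher in regulatory than in conventional cells for 82 genes, 0.804% of those tested, and lower for 77, 0.755%. Conventional cells were chosen without CD8 RNA and regulatory ones were not, which bears on genes of CD8 T cells.

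Several changes were of similar size in both kinds of cell. Pdcd1 rose by 0.90 in regulatory and 0.92 in conventional cells, a difference of -0.016 ± 0.16 (edgeR, adjusted p = 1), Nkg7 by 0.85 and 0.82, a difference of 0.035 ± 0.087 (edgeR, adjusted p = 0.965), and Klf2 had -1.41 and -1.16, a difference of -0.23 ± 0.23 (edgeR, adjusted p = 0.86). Other changes differed. Egr1 had -2.08 in regulatory and -0.48 in conventional cells, a difference of -1.60 ± 0.20 (edgeR, adjusted p = 0.00039). Ccr2 had -1.08 and 0.20, a difference of -1.29 ± 0.18 (edgeR, adjusted p = 0.0010), and Cxcr6 -0.83 and 0.92, a difference of -1.75 ± 0.18 (edgeR, adjusted p = 5.9e-05). With the stricter regulatory cells Cxcr6 had 0.15, while Egr1 had -2.14 and Ccr2 -1.08. The difference from conventional cells was not tested with the stricter cells. Ccl4, a chemokine of activated T cells, had 410 and 290 CPM in expanded and single-cell regulatory WT cells and 91.8 and 236 in VISTA-KO, against 552 and 51.5, and 561 and 48.3, in conventional cells. Ikzf2 had 31.4 CPM in expanded and 97.0 in single-cell conventional WT cells, and 41.1 and 106 in VISTA-KO. Genes of regulatory T cells were thus measured in conventional single cells, whose part in these differences was not tested.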

How the data were processed

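Per the labels and the study's methods, the authors aligned gene expression and receptor reads with Cell Ranger to mouse GRCm38 and deposited, for each barcode, the UMI count of every gene, and receptor contigs with their UMI and read counts. The deposited values were not normalized. The labels describe a 3′ kit and the methods a 5′ kit. Members and gene lists were chosen with earlier results of these data known.

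Cells with at least 600 genes were kept, and doublets were not called. The deposited counts were summed per library and group, T cell receptor segments were left out, and genes passing filterByExpr (minimum count 10) were fitted with edgeR 4.0.16 (TMM, quasi-likelihood, library as a block) in R 4.3.3. DESeq2 1.42.0 was an alternative. The fits were tested on simulated counts that had the same profile in both libraries and the same spread for every gene. These data differ between libraries and hold clonotypes of unequal size, so that test does not show that the calls hold here. Other steps used Python 3.11.15, numpy 2.4.6, scipy 1.17.1, pandas 2.3.3 and matplotlib 3.10.9. Library totals were 72098984 UMIs in WT and 59916814 in VISTA-KO. Named genes were the 10 highest and 10 lowest called with at least 20 CPM in 1 group and 1 direction in both libraries, and up to 6 members of each list, called ones first. Genes named outside this rule, among them Il7r, Ctla4, Ikzf2, Nr4a1 and the genes of single clonotypes, were chosen after their values were seen. One gene that the rule names is not reported here.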

Additional observations from a re-analysis of the deposited data

Results flagged for a closer look

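The change with expansion differed between regulatory and conventional CD4 cells, by edgeR's test of the interaction over 8 sums. It was higher in regulatory cells for 82 genes and lower for 77. The values below are log2 differences, regulatory minus conventional, of the 5 genes furthest from 0 in each direction among those with at least 20 CPM in 1 group. The change was lower in regulatory cells for Zfp683 at -7.43, Spp1 at -6.91, Cd209a at -5.39, Gzma at -5.01 and Ccl4 at -3.47. Zfp683 had no UMI in the expanded regulatory cells of either library, so the size of its value depends on the prior count of the model. Spp1 and Cd209a had 80.6 and 57.7 CPM in expanded conventional WT cells and 0 in those of VISTA-KO, so their values rest on 1 library. The change was higher in regulatory cells for Lrrc32 at 5.31, Trf at 4.37, Rln3 at 3.87, Igsf23 at 3.56 and Atp1b1 at 3.53. Atp1b1 fell in both kinds, with -1.95 in regulatory and -5.46 in conventional cells. Lrrc32, Trf and Rln3 were not called in regulatory cells (edgeR, adjusted p = 0.50, 0.090 and 0.091). Expanded conventional cells had few UMIs of these genes, with Trf at 2.55 and 0.33 CPM and Rln3 at 1.70 and 0.66, in WT and VISTA-KO. Lrrc32 had 0.849 and 0 CPM in expanded conventional cells and 4.60 and 9.92 in single-cell ones, in WT and VISTA-KO. Of 93 ribosomal protein genes tested, 43 had a higher change in regulatory cells by this test and none a lower one. Over all 10200 genes tested, 82 had a higher change, 0.804%, and 77 a lower one, 0.755%. The median change of the ribosomal protein genes was 0.046 in regulatory and -0.29 in conventional cells.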

How the results depend on the processing

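Against 131 genes called higher and 148 lower, the counts were 24 and 9 with DESeq2, 57 and 94 without TMM, 228 and 245 with expanded clonotypes of at least 2 cells, 65 and 83 of at least 5 cells, 38 and 73 with at most 3 cells of each clonotype, 55 and 68 with cells thinned to 2000 UMIs, 74 and 59 without cells with a Cd8a or Cd8b1 UMI, 40 and 44 without cells with 2 or more TRB contigs, 35 and 46 with at least 2 Foxp3 UMIs, 1 and 7 without the library block, 52 and 60 without cells with a Cd8a UMI, 25 and 15 with the stricter cells. They stayed within 1.5 times of the main counts with no filter on low counts, without the largest clonotype of each library, without dividing cells, with single-cell clonotypes seen once among all cells, with clonotypes by TRB only and under 30% mitochondrial UMIs. The expanded share of WT cells moved to 38% with expanded clonotypes of at least 2 cells, 19.8% of at least 5 cells, 22.9% without cells with a Cd8a or Cd8b1 UMI, 30.3% without cells with 2 or more TRB contigs, 21.3% with the stricter cells. The expanded share of VISTA-KO cells moved to 18.6% with expanded clonotypes of at least 2 cells, 2.06% of at least 5 cells. The 82 and 77 genes of the interaction became 140 and 177 with no filter on low counts, and the 77 became 31 with DESeq2. Of the named genes called, 4 changed sign under an alternative: Cxcr6 at 0.15 with the stricter cells, Bst2 at 0.062 without cells with a Cd8a or Cd8b1 UMI, 0.15 with the stricter cells, Cd8b1 at 0.14 without cells with a Cd8a UMI, Cst3 at -0.28 with at most 3 cells of each clonotype, -0.22 without cells with a Cd8a or Cd8b1 UMI, -0.35 without cells with 2 or more TRB contigs, -0.25 without cells with a Cd8a UMI, -0.29 with the stricter cells. Genes that were not called and changed sign under an alternative had these log2 values there. Mcm2 had -0.047, -0.22, -0.49, -0.33, -0.026, -0.082, -0.12 and -0.50. Mcm3 had -0.62, -0.0087 and -0.64. Mcm4 had -0.15, -0.20, -0.018 and -0.13. Mcm5 had -0.15, -0.85, -0.090, -0.060, -0.036 and -0.86. Mcm6 had -0.090 and -0.076. Mcm7 had 0.018, 0.069, 0.15 and 0.013. Gzmb had 0.034, 0.16, 0.066 and 0.11. Ifit1 had 0.079, 0.61 and 0.10. Ifit3 had 0.81 and 1.15. Ifit3b had 0.11. Irf7 had 0.036 and 0.078. Socs1 had -0.13, -0.16, -0.063, -0.058 and -0.029. Pfkp had -0.060. Gapdh had -0.060, -0.059 and -0.022. Pgk1 had -0.015. Pgam1 had -0.18. Hspa1b had -0.058. Hsph1 had 0.33, 0.035, 0.047, 0.040, 0.037, 0.0025 and 0.059. Dnajb1 had 0.037, 0.069, 0.052, 0.016 and 0.30. Hsp90aa1 had 0.16, 0.050, 0.16 and 0.011. Lyz2 had -0.37, -0.99, -0.76, -1.36 and -0.92. C1qa had 0.055, 0.23 and 0.089. C1qc had -0.093. Ighm had -0.038. The cause of these moves was not tested. Of the 70 named genes called, 27 moved beyond the spread between libraries with the WT library alone and 17 with VISTA-KO alone. None changed sign there, which was partly fixed in advance. The genes were called on these same libraries, and the choice of the 20 top genes asked for 1 direction in both. The stricter cells and the removal of cells with a Cd8a UMI were chosen after seeing the data. The library block paired the expanded and single-cell sums of each library, and without it 8 of the 279 calls were kept. The labels give no replicate numbers. With 1 pool of mice per genotype and at most 205 expanded cells in a library, genes of few UMIs could not be tested in the stricter cells.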
